A study of Mus musculus with 14 samples.

Results

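The last stretch of mouse chromosome 11 held more SOX10 ChIP regions than any other stretch of its length in PY230 tumors, and their median signal was 1.65 times that of the whole list. The stretch is taken here as all regions of chromosome 11 that start beyond an edge placed in the gap between 110820738 and 111905619 (mouse build mm9), and is called the distal segment. It held 243 of the 7929 regions of the deposited list and ended with the last listed region at 121653297. Its length was 0.396% of the summed lengths of the chromosomes, each taken up to its last listed region. Chromosome 11 held 319 further regions before the segment. The position of the edge was chosen from the density and the signal of these same regions, so the density, signal, width and spacing of the segment are descriptions and were not tested. Several libraries were combined into the list, and no value has a replicate error.

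The list belongs to 2 SOX10 ChIP samples and 1 control sample, all from PY230 tumors of adult C57BL6J mice. PY230 is a mouse mammary tumor line derived from an MMTV-PyMT tumor, in which the polyoma middle T oncogene is driven in mammary epithelium, and it was transplanted into syngeneic mice. The ChIP cells carried SOX10 joined to an AVI tag together with BirA, an enzyme that places biotin on the tag, and the chromatin was captured on streptavidin beads with extra SDS washes. Control cells went through the same capture, and the labels do not say which of the constructs they carried. The protocol describes sorting of the tumor cells, while the design text calls the tumors bulk. How much tagged SOX10 the cells made in comparison with their own SOX10 is not given in the sources used here.

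SOX10 is a transcription factor of the SoxE group, which it shares with SOX8 and SOX9, and it binds short DNA motifs through an HMG box. It is best known from neural crest cells, glia and melanocytes, and in the mammary gland it marks fetal stem cells and part of the adult epithelium. Distal mouse chromosome 11 carries Sox9, whose gene-poor flanks are known to hold distant enhancers. Farther toward the end of the chromosome lie Sec14l1, which encodes a lipid-binding Sec14-like protein, and Septin9, which encodes a filament-forming GTP-binding protein of the cytoskeleton. Near the very end lies Zfp750, a zinc-finger regulator of epidermal differentiation.

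The gene order of that end was read from a RefSeq gene table of assembly GRCm38.p6. It places Sox9 between Gm11677 and Slc39a11, with 206 of the 1609 protein-coding genes of chromosome 11 from Sox9 onward. Sec14l1 and Septin9 are direct neighbours, with 97 protein-coding genes between Sox9 and Sec14l1. Zfp750 lies between Tbcd and B3gntl1, and 4 protein-coding genes follow it. The table is of another build than the list, so single regions were not assigned to these genes, and no sequence of a region is shown. Positions below are those of the list.

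The deposited signal has no stated unit. Signal times width was a whole multiple of a step of 0.0479 (within 0.05 of a whole number) in 100% of the 7282 regions under 1500 bp with a signal above 0, as in a mean coverage to which every base of a read contributes a fixed amount. Of those regions, 2856 were whole multiples of 54 steps. The product of signal and width, in units of 54 such steps, is called a read equivalent below. It is a reading of the values and may be net of a control. The step was fitted to the same regions under 1500 bp. For 15 of the 243 members the product was not a whole multiple, and products were rounded to the nearest step. The list gives no library totals, and sample depth is therefore unknown.

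A gap of 1085 kb lay across the edge. The 3 regions just before the edge, at chr11:109692736-109693586, chr11:110700478-110700985 and chr11:110820099-110820738, had signals of 0.0273, 0.0305 and 0.0206. The 3 just after it, at chr11:111905619-111906180, chr11:111956472-111957351 and chr11:112482619-112483160, had 0.0460, 0.0323 and 0.0191. The values on both sides of the edge overlapped, and the regions nearest to it were themselves sparse. Dense regions began only after a further gap of 525 kb, with the group that starts at 112482619.

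The distal segment held 23.5 regions per Mb (95% exact Poisson interval 20.6 to 26.6, counting error only) over 10.4 Mb. Chromosome 11 before it held 2.95 per Mb (2.63 to 3.29) over 108.3 Mb, which makes the segment 7.97 times as dense. The regions of the segment covered 23.1 kb per Mb, against 1.98 kb per Mb before it. In read equivalents the segment held 421 per Mb and the rest of the chromosome 25.6 per Mb, a ratio of 16.4. This last ratio combines the number of regions, their width and their signal.

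**Figure D1:**
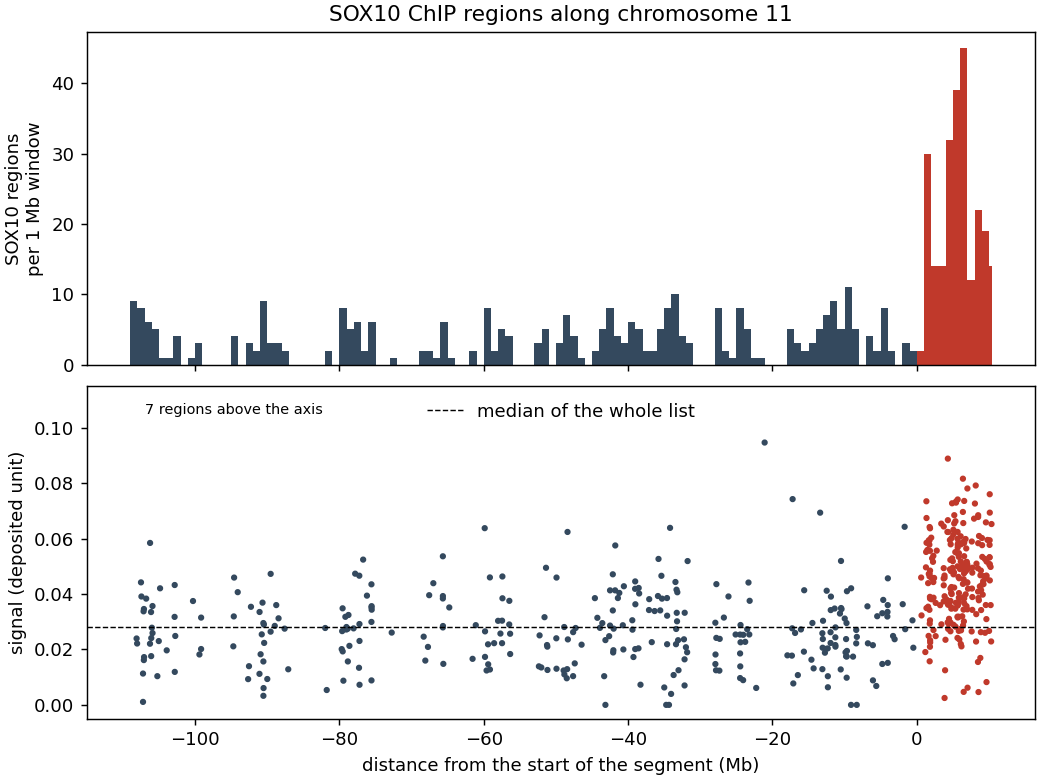
SOX10 ChIP regions along chromosome 11, by distance in Mb from the start of the distal segment. Bars give the number of regions in each 1 Mb window (the last window is shorter) and points give the deposited signal of each region, red inside the segment and dark blue before it, with 7 strong regions at the chromosome start above the axis. Counts do not pass 11 before the segment and reach 45 inside it.

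The excess was larger among strong regions. Counting only regions at or above the signal median of the whole list, 0.0280, the segment was 15.8 times as dense as chromosome 11 before it. Counting only regions below that median, it was 1.87 times as dense. Of the 243 regions, 211 or 86.8% reached the list median, where 50.0% of the list does by construction. Before the segment 140 of 319 regions, or 43.9%, reached it.

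In windows of 1 Mb from its start, the segment held 2, 30, 14, 14, 32, 39, 45, 12, 22 and 19 regions, and 14 in the final 0.353 Mb. The first window was as sparse as the chromosome before the segment, where 109 windows held a median of 2 and at most 11. From the second window on, all windows of the segment exceeded that highest count. Windows with 20 or more regions made up 0.777% of the 2575 windows of the list, 20 in all. The segment held 5 of them, chromosome 4 held 6, and 9 lay elsewhere. The highest count was 45 in the window from 117300001 to 118300000, and the highest outside the segment was 38, in a pair of windows on chromosome 4. That pair had median signals of 0.0424 and 0.0476, and the window of 45 regions had 0.0482.

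Regions within the segment were parted into 10 blocks by 9 gaps of 200 kb or more, which together took up 27.9% of its length. The gaps ranged from 203 to 525 kb. The 4 largest blocks held 208 members, or 85.6%. The first of them, chr11:112482619-113696864, held 41 regions at 33.8 per Mb with a median signal of 0.0458. The next, chr11:115024185-116730975, held 58 regions at 34.0 per Mb with a median of 0.0458. The densest of the 4, chr11:116937932-118402204, held 73 regions at 49.9 per Mb with a median of 0.0475. The fourth, chr11:119774614-121098668, held 36 regions at 27.2 per Mb with a median of 0.0452.

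The remaining blocks were small. A block at the very end, chr11:121313047-121653297, held 14 regions with the second highest block median, 0.0520. The block with the highest median, 0.0591, held 6 regions (chr11:119236753-119571477), and one of 7 regions lay in 94.1 kb at chr11:118902195-118996313. Between the first and the second large block lay a thin stretch with a pair of blocks of 3 regions each (chr11:113912536-114059999 and chr11:114529729-114714433), whose medians of 0.0368 and 0.0360 were the lowest of the 10 blocks.

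Counts per 1 Mb window varied widely along the segment, and the median signal of the windows varied little. Single members varied more, from 0.00469 to 0.0817 within the window of 45 regions. Over the 10 windows with 10 or more regions, the median signal stayed between 0.0412 and 0.0520, while the number of regions ranged from 12 to 45. Across the 243 regions, signal and position had a Spearman rho of 0.06, and width and position one of -0.08. Both are descriptions over regions of 1 list that share their libraries. The list is written in stretches that change near 115.4 Mb on several chromosomes. Median signals were 0.0456 for the 61 members written ahead of that break and 0.0473 for the 182 members written after it.

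**Figure D2:**
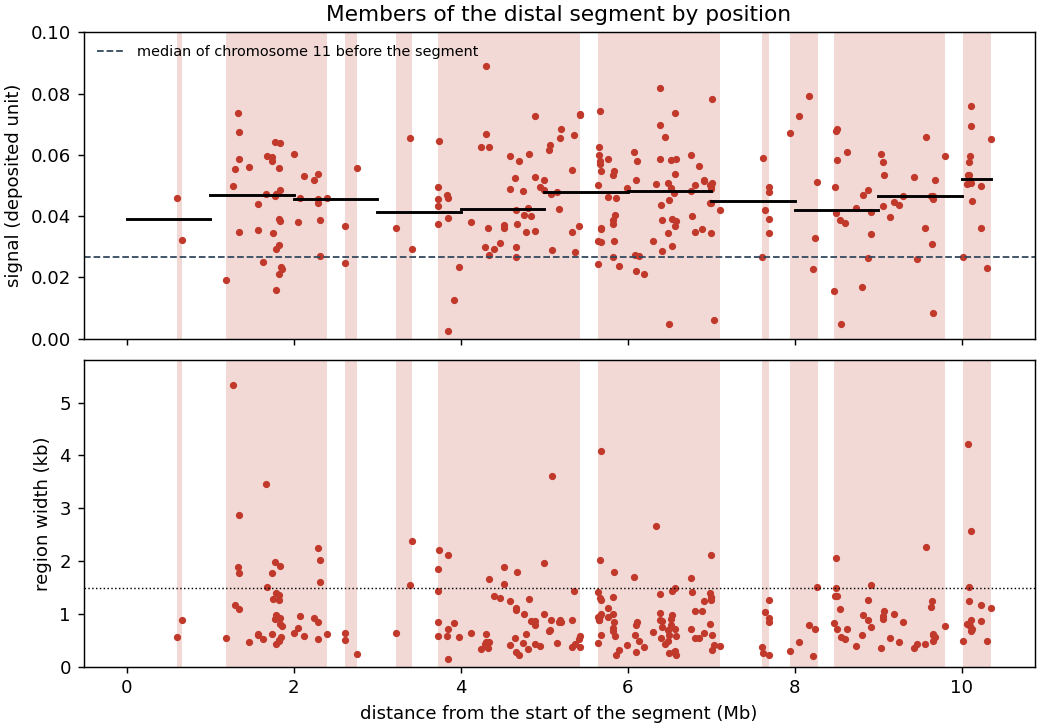
Members of the distal segment by distance in Mb from its start, with their signal in the deposited unit (upper panel, black lines are medians of 1 Mb windows, the dashed line is the median of chromosome 11 before the segment) and their width in kb (lower panel, dotted line at 1.5 kb). Shaded bands are the 10 blocks. The window medians run between 0.0391 and 0.0520, all above the dashed line at 0.0265.

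The median signal of the members was 0.0462 (quartiles 0.0356 and 0.0562), against 0.0265 before the segment (quartiles 0.0183 and 0.0357) and 0.0280 in the whole list. The median of the members was 1.74 times that before the segment. The ratio between the groups was smaller toward the upper end. At the lowest 10% of each group, the signals were 0.0265 in the segment and 0.0108 before it, a ratio of 2.46. At the upper 10% they were 0.0654 and 0.0448, a ratio of 1.46. Of the members, 89.7% lay above the median of the regions before the segment, and 8.78% of those regions lay above the median of the members.

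The 10% of the list with the highest signal began at 0.0481. The segment had 109 of its 243 regions there, or 44.9% (exact binomial interval 38.5% to 51.3%, counting error only), where the list has 10.0% by construction. Before the segment 22 of 319 regions, or 6.90%, did. Members thus made up 13.7% of that upper group and 3.06% of the list. No member was among the 1% with the highest signal. The strongest member ranked 89 in the list, so the segment is a broad set of raised signals without extreme ones.

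The strongest member was a region of 465 bp at chr11:115602315-115602779, with a signal of 0.0889 or 16 read equivalents. This was 3.17 times the list median. The second, at chr11:117691075-117691967, had 0.0817 and 28.2 read equivalents. The third, at chr11:119463755-119464543, had 0.0792 and stood alone, with its nearest neighbour 48.0 kb away. The fourth, at chr11:118312350-118312673, had 0.0781 over only 324 bp and 9.80 read equivalents. The next 6 had signals between 0.0730 and 0.0761. Of these, chr11:121404440-121407018 combined a width of 2579 bp with 75.9 read equivalents, and chr11:112628063-112629953 combined 1891 bp with 53.8. These 10 regions lay in 7 of the 11 windows, so the highest signals were not gathered at a single place.

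Chromosome 11 before the segment held 8 regions above the strongest member. The 7 strongest of them lay within the first listed bases of the chromosome, between 3023535 and 3045536, with signals of 0.121 to 0.735. The other was at chr11:90216491-90217023, with 0.0947. Weak regions were few in the segment. A signal under 0.01 was listed for 5 members (2.06%) and for 27 regions before the segment (8.46%), and a signal of 0 for no member and 5 regions before it. The weakest member, chr11:115148746-115148899, had a signal of 0.00249 over 154 bp, and the 5 weakest had at most 2 read equivalents each.

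Members were wider than the other regions of the chromosome. Their median width was 827 bp (quartiles 545 and 1262), against 640 bp before the segment (426 and 840) and 683 bp in the list. A width of 1500 bp or more was reached by 37 members, or 15.2%, where 7.34% of the list reached it. Before the segment 3 of 319 regions, or 0.940%, did, so 92.5% of the wide regions of chromosome 11 lay in the segment. With a limit of 1000 bp the shares were 33.3% and 14.4%, and with 2000 bp they were 7.0% and 0.313%. Width and signal come from the same reads and calls, and width was not tested as a separate property.

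The widest member, chr11:112569291-112574631, spanned 5341 bp with a signal of 0.0497 and 102.6 read equivalents, the highest value in the segment. The next were chr11:121377478-121381690 with 4213 bp and a signal of 0.0533, and chr11:116978059-116982145 with 4087 bp and 0.0546. All 3 had signals above the median of the members. The fourth, chr11:116391081-116394696, was 3616 bp wide with a signal of 0.0289, close to the list median. The fifth, chr11:112961662-112965130, was 3469 bp wide with 0.0473. Wide members were thus found in the first large block, in the middle and at the end of the segment.

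Higher signal was seen in all 5 width classes of the list. In the narrowest class (98 to 450 bp) the medians were 0.0427 in 40 members and 0.0224 in 92 regions before the segment, a ratio of 1.91. In the widest class (1072 to 9185 bp) they were 0.0489 in 76 members and 0.0330 in 32 regions, a ratio of 1.48. The ratios of the other 3 classes lay between 1.47 and 1.87. The widest class held 31.3% of the members and 10.0% of the regions before the segment. Within the segment, signal and width had a Spearman rho of 0.19 over 243 regions, against 0.16 over the whole list.

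The median member was worth 15 read equivalents (quartiles 8.35 and 22.2), against 6.35 before the segment (3.57 and 10.0). Under 10 read equivalents were reached by 79 members, or 32.5%, where 64.6% of the list stayed under 10. Before the segment 74.3% did. Even so, the order of single members by signal rests on small numbers.

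Neighbouring members lay close together. The median gap was 13.3 kb (quartiles 2.76 and 49.5), against 106 kb before the segment (19.8 and 365). Of 242 neighbouring pairs, 109 or 45.0% (exact binomial interval 38.7% to 51.5%, counting error only) were less than 10 kb apart, where 22.7% of pairs in the list were. Before the segment 16.4% were. Gaps under 1 kb parted 32 pairs, or 13.2%, where the list has 5.75%. Whether such close regions are separate binding sites was not tested.

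The spacing was also set against the mean gap, which follows from the number of regions. The mean gap was 39.3 kb in the segment and 338 kb before it, so the median gap was 0.338 of the mean in the segment and 0.313 of the mean before it. Scaled in this way, the spacing inside the segment was close to that before it. In the whole list the median gap was 0.192 of the mean. That value pools 20 chromosomes of different density. On chromosome 4 up to 120 Mb, a single stretch, the median gap was 0.181 of the mean, below both values of chromosome 11. The longest gap between members was 525 kb, and before the segment it was 5119 kb.

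**Figure D3:**
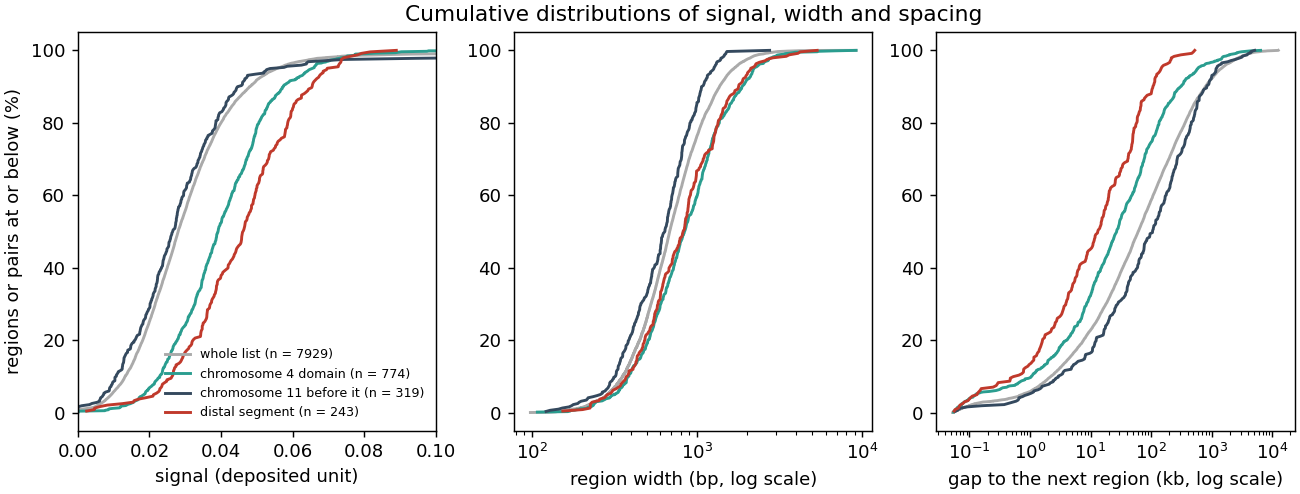
Cumulative share (%) of regions by signal (deposited unit) and width (bp, log scale), and of neighbouring pairs by gap (kb, log scale), for the distal segment, chromosome 11 before it, the chromosome 4 domain and the whole list. Signals above 0.1 are beyond the axis. Over most of its range the segment lies to the right of the others in signal and to the left in gap, and it runs near chromosome 4 in width.

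When members closer than 10 kb were joined, 134 units remained. They comprised 90 isolated members and 44 runs, and 153 members, or 63.0%, belonged to a run. In the whole list 38.1% of regions did. The share was 28.8% on chromosome 11 before the segment and 49.6% on chromosome 4 up to 120 Mb. Of the runs, 22 held 2 regions, 6 held 3, 8 held 4 and 8 held 5 or more. Median signals were 0.0458 for single members, 0.0461 in runs of 2 to 4 and 0.0485 in runs of 5 or more. Median widths were 612 bp for single members and 950 bp in runs of 5 or more.

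The run with the most members, chr11:116937932-116982802, held 12 regions over 44.9 kb, which covered 35.2% of it. It opened with a weak region of 453 bp and a signal of 0.0242. Its next regions had signals of 0.0318, 0.050, 0.0600, 0.0625 and 0.0579 up to the strongest, chr11:116967732-116969026, at 0.0742. The signals after that were 0.0568, 0.0359 and 0.0316, followed by the region of 4087 bp at 0.0546 and a last one of 599 bp at 0.0362. Its 4 last regions followed one another at gaps of 0.247, 0.1 and 0.058 kb. Signal within this single run thus ranged over 3.07 times, and its regions summed to 310 read equivalents.

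A run at the end of the chromosome, chr11:121377478-121418545, held 8 regions over 41.1 kb with the highest median of the runs of 5 or more, 0.0555. Its regions lay between 0.0449 and 0.0761, so each exceeded the upper quartile of chromosome 11 before the segment. Another run of 8 (chr11:118279169-118312673) had a median of 0.0494 and ended with the fourth strongest member. In the first large block, a run of 5 (chr11:113069708-113094157) and one of 9 (chr11:113120682-113154069) followed each other with medians of 0.0464 and 0.0384. The shortest of the 8 runs of 5 or more, chr11:115024185-115035834, held 5 regions over 11.7 kb, of which 59.6% was covered.

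The other runs were one of 7 regions (chr11:117117277-117146846) with a median of 0.0387 and one of 5 (chr11:117859489-117874228) with 0.0537. The median fold between the signals of adjacent members was 1.37 for the 109 pairs less than 10 kb apart and 1.45 for the other 133. Before the segment, where regions were worth fewer read equivalents, the corresponding folds were 1.53 and 1.65. They rest on 51 and 262 pairs of regions with a signal above 0. These folds were not set against counting error.

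**Figure D4:**
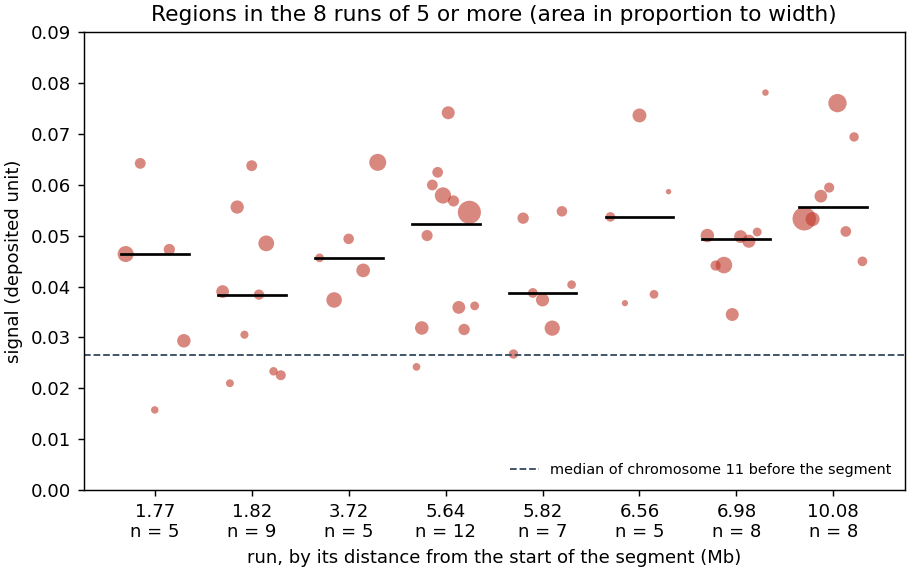
Signal (deposited unit) of each region in the 8 runs of 5 or more members, placed by the distance of the run from the start of the segment in Mb and, within a run, in order along the chromosome. The area of a point is in proportion to region width, black lines are run medians and the dashed line is the median of chromosome 11 before the segment. Run medians lie between 0.0384 and 0.0555, all above the dashed line at 0.0265.

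The part of the list most like the segment was chromosome 4 up to 120 Mb, with 774 regions at 6.62 per Mb. The segment was 3.55 times as dense. Its median signal was 1.18 times that of the chromosome 4 domain (0.0462 and 0.0392), and the ratio was nearly the same from the lowest to the highest 10% (1.16 and 1.14). The widths were alike, with medians of 827 and 842 bp and shares of wide regions of 15.2% and 17.1%. Wide regions and raised signals were found together in both places, at different densities. Pairs less than 10 kb apart made up 45.0% in the segment and 32.1% in the chromosome 4 domain. The longest run held 12 regions in the segment and 16 in that domain. These values were not tested.

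Stretches as long as the segment were also searched for on every chromosome. The densest outside the segment held 139 regions, on chromosome 4 from 97131741 to 107479984, with a median signal of 0.0384. Chromosome 15 followed with 130 regions from 53997989 to 64235013. There 16.2% of regions were 1500 bp or wider, close to the share in the segment, while the median signal was 0.0280, that of the whole list. The segment held 1.75 and 1.87 times these numbers. On chromosome 11 itself, the densest stretch before the segment held 58 regions with a median of 0.0241 and no wide region.

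The ends of the other chromosomes did not reach such values. The last stretch of the same length on the other 19 chromosomes held 7 to 77 regions (median 34), at most 7.44 per Mb. Their median signals ranged from 0.0195 to 0.0345. The highest count was on chromosome 15 and the highest median on chromosome 5. Of the 19 ends, 12 were denser than the rest of their chromosome and 6 had a higher median signal. All 19 together held 700 regions.

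**Figure D5:**
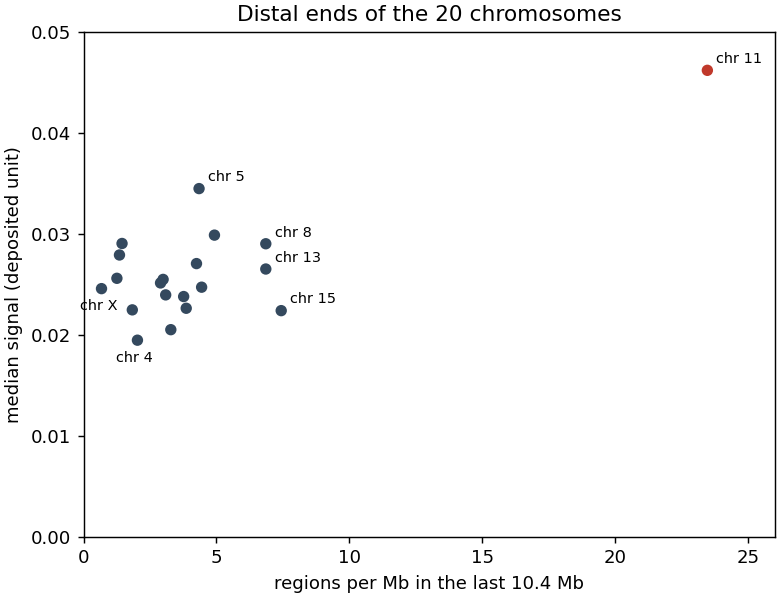
Regions per Mb and median signal (deposited unit) in the last 10.4 Mb of each of the 20 chromosomes, measured back from the last listed region. The end of chromosome 11 (red) is at 23.5 regions per Mb and 0.0462, and the other 19 lie at or under 7.44 regions per Mb and 0.0345.

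Extra DNA copies of distal chromosome 11, with Septin9 among the genes gained, are known from other mouse mammary tumors. The number of DNA copies of the segment in these tumors was not tested, since the tumor input was not analysed here and the list holds no coverage outside its regions.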

How the data were processed

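The only values used were the deposited signal values of 1 list of regions for both PY230 SOX10 ChIP samples against the control, made by ChIPmentation, in which a transposase adds adapters to chromatin on the beads. Per the submitters' processing notes, the build was mm9 and the tools were MACS2 2.1.1, Bowtie 0.12.8, SAMtools 1.3.1 and FastQC. How regions were called, whether a control was subtracted and how the signal was formed is not given in the sources used here. Starts are written 1-based. The H3K27ac samples and tumor input of the 14 samples were not analysed here.

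The members and lists were chosen with earlier results of these data known. Lengths run from the edge of the segment to the last listed end, and from 3000000 to that edge before the segment. The edge lies 606 kb before the first member. Runs join regions less than 10 kb apart, and blocks are parted by 200 kb. Quantiles, counts and exact Poisson and binomial (Clopper-Pearson) intervals at 95% were computed with Python 3.11.15, pandas 2.3.3 and scipy 1.17.1, after a check on simulated lists. Intervals treat regions as independent, which neighbours are not. Regions named are the 10 strongest and 5 widest members, the 3 on each side of the edge, those at 0, the last member and runs of 5 or more. The weakest members, blocks, regions of chromosome 11 above the strongest member, and stretches on other chromosomes were named after their values were seen.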

Additional observations from a re-analysis of the deposited data

How the results depend on the processing

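No paired analysis was possible because both ChIP samples were combined before deposit, and for that reason no library could be left out. Of 34 alternatives to 11 results, 19 stayed within the interval of the reported value or, for counts, within 1.5 times of it. The median signal, its ratio to chromosome 11 before the segment (1.68 to 1.77), the median width and the highest count per 1 Mb did so under each alternative run. Leaving out regions at 0 removed no member, which fixed the member count, median signal and median width in advance. The windows moved by 0.5 Mb included the original windows, so the highest count could not fall. Only the ratios to chromosome 11 before the segment have a direction, which no alternative turned. They compare the density and signal by which the segment was chosen. With runs counted once the members numbered 134, at 12.9 per Mb and 5.25 times the density before the segment. With regions at or above the list median only, the density was 20.4 per Mb and the ratio 15.8, and with regions below it the ratio was 1.87. Pairs closer than 5 kb and 20 kb made up 34.3% and 59.5%, and pairs under 10 kb made up 36.7% once regions less than 1 kb apart were joined. The upper 5% and 20% of the list took in 26.3% and 62.6% of the members. Gaps of 100 kb and 300 kb parted the segment into 31 and 5 blocks. Widths from 1000 bp and 2000 bp were reached by 33.3% and 7.0% of the members, limits chosen after seeing the data, as were the stretches on other chromosomes. Other limits for gaps, widths and the upper share move these values by construction, and the cause of the other shifts was not tested. Few read equivalents per region limit the order of single regions by signal.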
